A study of Mus musculus with 6 samples.

Results

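Chromatin accessibility was examined at 36 genes that belong to the stem-cell program or to the MLL leukemia program of hematopoietic cells, in mouse cells transformed by the MLL-ENL oncogene. A gene was taken to own every listed region that overlapped its GENCODE M21 body on the genome build mm10 or the 25 kb on either side. By this rule 22 of the 36 genes held 58 of the 10016 listed regions, and no region fell into the windows of several of these genes. The list holds only regions past the authors' significance cutoff, so that a gene without a region has no listed change and is not shown to be unchanged.

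The assay was ATAC-seq, in which a transposase cuts open DNA and the reads over a region measure how accessible it is. WT cells were fetal liver cells of Cebpa fl/fl Cebpb fl/fl mice, transformed with a retrovirus for MLL-ENL and grown in interleukin 3, and both Cebp genes were still present. The dKO cells were derived from such lines by Cre-mediated deletion of Cebpa and Cebpb and were labelled as carrying GFP. In dKO-LAP* cells the same deletion was complemented with rat C/EBPβ in its isoform LAP*. The labels give 2 libraries to each of the 3 groups and name no vector for WT, so that the vector and the genotype cannot be told apart. The dKO lines were rare surviving clones that expressed the related factor C/EBPε, and differences between clones are part of the same comparison. Values of dKO-LAP* were not analyzed here, and the levels given are the authors' deposited group means of 4 libraries, without a value per library. No standard deviation can therefore be given and no test was run here, the authors' own p-values were not used, and the words higher, lower, rose and fell describe listed regions by the difference of their group means. The study's methods give an average read number over its samples, and the depth of each single library is unknown here. The labels' cell types were checked first. A region over Cebpa (chr7:35118826-35119650) fell from 9.99 in WT to -0.15 in dKO on the log2 scale, and one at Cebpb (chr2:167689715-167690187) fell from 7.38 to -0.15, the lowest level in the table. Of the 5 listed regions at these 2 genes, 3 were lower and 2, with 1 at each gene, were higher in dKO. Of 12 marker genes of myeloid progenitors, 9 had listed regions, of which 21 of 23 (91.3%) were higher in dKO, beside 60.3% of all listed regions. All listed regions at Itgam (which encodes CD11b), Ly6c2 and Csf1r were among the higher ones. The paper, in contrast, reports reduced CD11b and Ly6C staining and lower Csf1r RNA in dKO cells. These counts therefore do not measure how myeloid the cells were. Of 11 markers of other fetal liver cells, Epor, Afp and Itga2b had 4 listed regions, all higher in dKO, and their part in the results was not tested.

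MLL is a histone methyltransferase of hematopoietic progenitors. In leukemia its amino-terminal part is fused to one of several partners, among them ENL, AF9, AF10 and AF4, which belong to complexes that promote transcription elongation or carry the histone methyltransferase DOT1L. Menin and LEDGF (encoded by Psip1) tether the fusion protein to its targets, which include genes that normally keep stem cells self-renewing. C/EBPα and C/EBPβ are transcription factors of the granulocyte and macrophage lineage.

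Sequences are shown for regions with large changes, for the 5 Aff1 regions that hold motif letters and for 1 of the 2 Aff3 regions that do. Each line gives the central 200 bp of a region, read 5′ to 3′ on the plus strand, from GRCm38.p6 (the same chromosomes as mm10). Capitals mark the letters of a searched motif. The motifs were TTGCNNAA or TTACNNAA for C/EBP factors, TGACTCA for AP-1, GAGGAAGT for PU.1, AACCACA for RUNX and AGATAA for GATA factors, each on both strands. The Lin28b window is that of the largest rise among windows free of GENCODE and RefSeq exons (the larger Lin28b rises below were left out for this reason), the Prdm16 window that of the largest fall, and the first Aff1 window that of the largest fall, among such windows, within 1 kb of a transcript start of its own gene. The other 5 windows were chosen after their values were seen, for the motif letters they hold.
Lin28b intron, higher, chr10:45454222-45454421: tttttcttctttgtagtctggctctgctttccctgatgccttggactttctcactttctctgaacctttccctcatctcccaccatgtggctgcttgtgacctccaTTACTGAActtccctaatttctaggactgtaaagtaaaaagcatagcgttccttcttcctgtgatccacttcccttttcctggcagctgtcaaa
Prdm16 intron, lower, chr4:154530461-154530660: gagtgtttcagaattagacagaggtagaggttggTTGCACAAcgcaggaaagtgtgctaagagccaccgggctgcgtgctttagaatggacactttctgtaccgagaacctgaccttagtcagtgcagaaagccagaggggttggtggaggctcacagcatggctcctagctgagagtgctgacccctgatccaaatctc
Aff1 intron near the 5′ end, lower, chr5:103693280-103693479: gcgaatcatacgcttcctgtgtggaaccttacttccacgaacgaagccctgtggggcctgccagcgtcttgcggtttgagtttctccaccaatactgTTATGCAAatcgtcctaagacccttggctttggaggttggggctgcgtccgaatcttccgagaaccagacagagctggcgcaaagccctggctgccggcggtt
Aff1 intron a, lower, chr5:103808073-103808272: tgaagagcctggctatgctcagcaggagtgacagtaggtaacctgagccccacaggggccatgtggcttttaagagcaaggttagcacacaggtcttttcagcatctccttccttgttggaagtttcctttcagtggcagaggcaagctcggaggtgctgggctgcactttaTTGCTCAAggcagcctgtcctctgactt
Aff1 intron b, lower, chr5:103838720-103838919: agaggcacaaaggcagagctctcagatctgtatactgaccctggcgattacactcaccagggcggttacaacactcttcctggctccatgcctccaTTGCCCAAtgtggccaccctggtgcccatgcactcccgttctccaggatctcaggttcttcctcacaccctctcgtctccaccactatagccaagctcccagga
Aff1 intron c, higher, chr5:103706035-103706234: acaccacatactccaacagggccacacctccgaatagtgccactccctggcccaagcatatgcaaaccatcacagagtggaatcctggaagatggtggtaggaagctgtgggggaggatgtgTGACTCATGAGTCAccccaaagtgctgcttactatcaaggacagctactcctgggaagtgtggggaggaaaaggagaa
Aff1 intron d, higher, chr5:103719847-103720046: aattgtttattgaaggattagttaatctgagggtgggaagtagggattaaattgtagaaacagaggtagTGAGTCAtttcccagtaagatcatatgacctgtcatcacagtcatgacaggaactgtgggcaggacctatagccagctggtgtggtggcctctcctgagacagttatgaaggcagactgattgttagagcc
Aff3 intron, higher, chr1:38437821-38438020: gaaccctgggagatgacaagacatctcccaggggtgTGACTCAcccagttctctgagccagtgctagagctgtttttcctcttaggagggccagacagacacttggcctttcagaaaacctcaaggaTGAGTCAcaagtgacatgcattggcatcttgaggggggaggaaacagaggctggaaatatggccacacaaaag
The Prdm16 and the 3 lower Aff1 windows each hold 1 C/EBP match, and the Lin28b window, which rose, holds 1 as well. In the Aff1 window that reads TGACTCATGAGTCA, a pair of AP-1 matches stand next to each other. None of the 8 windows holds both a C/EBP and an AP-1 match. A match describes letters and does not show that a factor is bound.

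Across the 58 regions accessibility was mostly higher in dKO. Higher levels were found at 47 regions (81.03%), whereas 60.3% of all listed regions were higher. At least 2-fold higher, a difference of 1 or more on the log2 scale, were 40 regions (68.97%, against 49.6% of all listed regions), and at least 2-fold lower were 9 regions (15.52%, against 35.9%). The median change, dKO minus WT on the log2 scale, was 1.42 with quartiles of 0.75 and 2.42, beside a median of 0.98 with quartiles of -1.57 and 1.76 over all listed regions. After subtraction of the median of 0.98, 22 regions were at least 2-fold higher and 11 at least 2-fold lower. The matching shares of all listed regions were not computed. The subtraction left a median of 0.44, with 40 of the 58 regions higher and 18 lower, beside 5005 higher and 4972 lower of all listed regions. The 7 regions that changed side were the Aff4 region, 1 of Mllt10, 1 of Angpt1 and 2 each of Jmjd1c and Bahcc1.

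Regions of the same gene mostly went the same way, in 11 of the 12 genes with several regions. The same share over all genes with several listed regions was not computed. Of the 11, Lin28b, Jmjd1c and Dot1l lie on chromosome 10, where 82.01% of all listed regions were higher. In 16 genes all listed regions were higher, in 5 genes (Prdm16, Msi2, Trib1, Cd93 and Psip1) all were lower, and Aff1 alone held both. Among further genes of these pathways with several regions, which are described at the end, both directions were found at 3 of 4 MLL and elongation cofactors, at 1 of 5 stem and progenitor genes and at 1 of 2 genes of the LIN28, HMGA and IGF2BP list. A single region stood for 10 of the 22 genes, and the 5 genes with most regions (Aff1, Bahcc1, Lin28b, Jmjd1c and Angpt1) supplied 30 of the 58, so that regions are not independent observations of a gene. The plot of changes by gene shows this division.

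**Figure D1:**
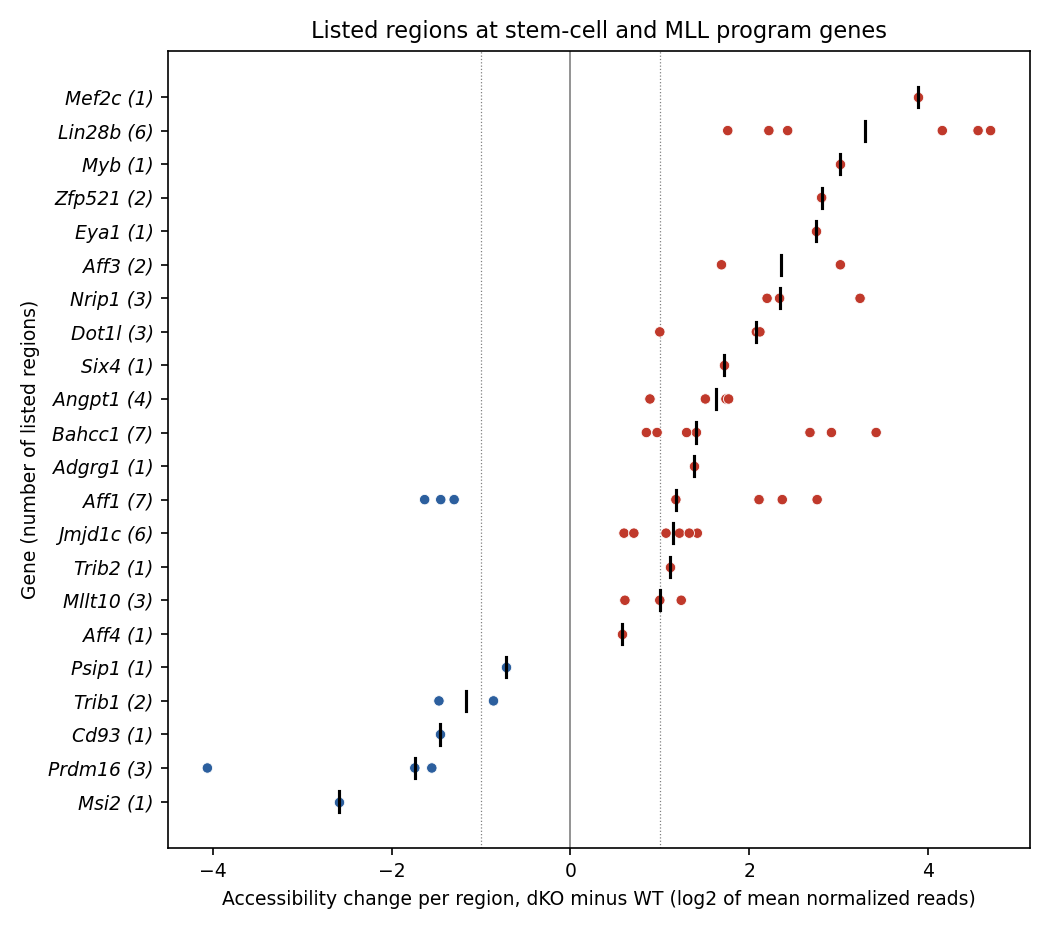
Each point is a listed region, placed by its change in accessibility (x axis, dKO minus WT, log2 of mean normalized reads) in the row of its gene (y axis, number of regions in brackets), red for higher and blue for lower in dKO, with a black bar at the gene's median and dotted lines at a 2-fold change. Points of 16 genes lie to the right of 0, those of 5 genes to the left, and Aff1 has 4 to the right and 3 to the left.

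Levels were close to those of the whole list. Median levels on the log2 scale were 4.45 (WT) and 6.17 (dKO) for the higher regions, and 5.72 (WT) and 4.02 (dKO) for the lower ones, beside 4.52 and 6.23 for all higher and 5.93 and 3.98 for all lower listed regions. Near-closed chromatin in WT, at or under 3 reads per library (a log2 mean of 1.44, with the lowest level taken as 1 read per library), was found at 3 higher regions, of which 2 lie at Lin28b and 1 at Mef2c. Their ratios are given with 95% counting intervals, which leave out every error but that of counting, as copies made by PCR count more than once. No lower region ended at or under this floor in dKO. In the whole list the lower group mean was at or under it at 202 of 6035 higher and 235 of 3981 lower regions.

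**Figure D2:**
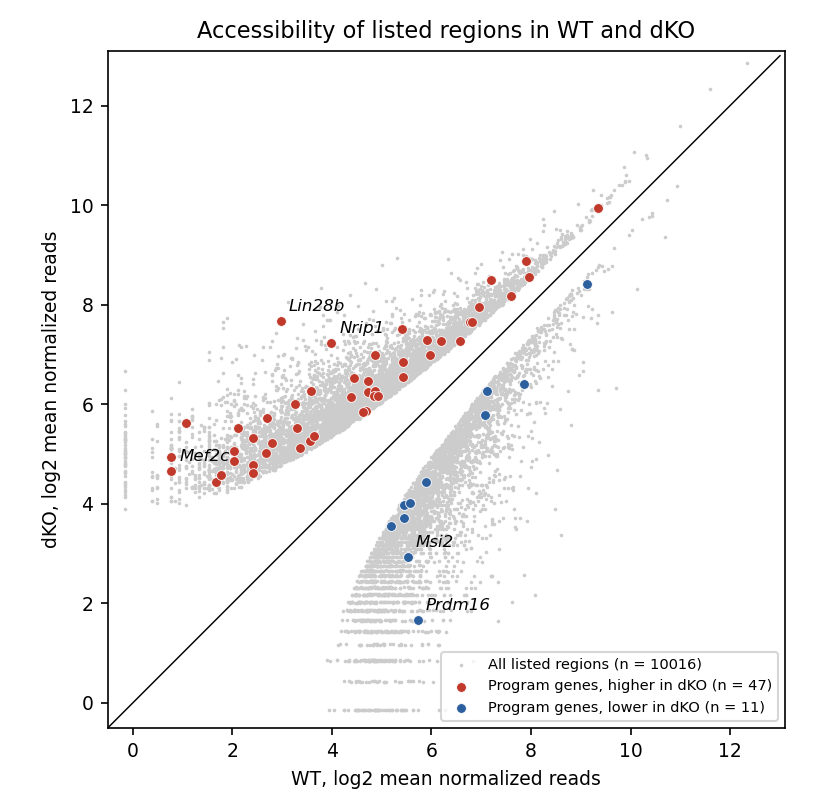
Log2 mean normalized reads in WT (x axis) and dKO (y axis) are plotted for all 10016 listed regions in grey and for the regions of the program genes in red (47 higher in dKO) and blue (11 lower), with the line of equal levels in black. The Lin28b region with the largest rise stands above most other regions of its WT level, and the empty band along the line is where regions did not pass the cutoff for the list.

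The largest rises were at Lin28b, which encodes a fetal RNA-binding protein that blocks maturation of let-7 microRNAs. All 6 regions were higher in dKO. A region over the start of transcripts that are annotated without a coding sequence, at the 5′ end of the gene (chr10:45485670-45486908), rose from a log2 mean of 2.97 to one of 7.67, a change of 4.70 and a ratio of 26.0 (counting interval 16.4 to 46.1). This region lies 15.47 kb upstream of the start of the protein-coding transcript. At 316 bp from that coding start, in an intron by the GENCODE annotation, a region (chr10:45469303-45469885) went from 1.07 to 5.63, a ratio of 23.6 (9.15 to 69.1). The intron region whose sequence is shown above (chr10:45454155-45454488) went from 0.77 to 4.93, a ratio of 17.9 (6.34 to 64.2). Upstream of the gene, 3 further regions at 8.193 to 24.33 kb from its 5′ end had WT levels of 2.79 to 4.39 and rose by 1.76 to 2.43. The 3 largest rises thus lay at the gene's starts and in its introns.

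Of the other members of this group, Msi2 went the opposite way and Hmga2 had no listed region. At Msi2, which encodes an RNA-binding protein of stem and progenitor cells, 1 intron region (chr11:88686995-88687330) fell from 5.52 to 2.93, a change of -2.59. Hmga2 encodes a chromatin protein expressed in fetal stem cells, and its nearest listed region was 129.2 kb away and rose by 1.85.

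Lin28b lies on chromosome 10, and so do Myb, Dot1l and Jmjd1c. All 16 regions of these 4 genes were higher in dKO, and of the 767 listed regions of that chromosome 629 (82.01%) were higher, with a median change of 1.25. On the other chromosomes 31 of 42 regions of the program genes (73.81%) were higher with a median of 1.34, beside 58.45% and 0.95 for all listed regions there. The part of a chromosome-wide difference in these values was not tested.

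Regions at the transcription factor genes were higher in 6 of 9 cases (66.67%, a share near the 60.3% of all listed regions), and the 3 lower ones all belonged to Prdm16. Mef2c encodes a MADS-box factor of lymphoid and myeloid progenitors and of MLL leukemia. Its single region, in an intron (chr13:83597440-83597702), went from 0.77 to 4.66, a ratio of 14.8 (5.17 to 53.2). Myb encodes a factor needed for progenitor growth and for MLL-driven leukemia. A region 19.14 kb beyond the 3′ end of Myb (chr10:21105230-21105794) rose from 2.70 to 5.72, a change of 3.02.

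Zfp521, a zinc finger gene of immature hematopoietic cells, had a region over its start (chr18:13972627-13972859) that went from 1.77 to 4.58 and an intron region that went from 2.04 to 4.85, so that both rose by 2.81. Eya1, which encodes a transcriptional coactivator with phosphatase activity, had an intron region (chr1:14218561-14218968) that rose from 3.25 to 6.00, a change of 2.75. Six4, which encodes a homeobox partner of EYA proteins, had an intron region (chr12:73110413-73110701) that rose from 3.65 to 5.37, a change of 1.72. An AP-1 match was present in the Six4 region and a C/EBP match in the Eya1 region.

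Prdm16, a zinc finger gene needed for the upkeep of hematopoietic stem cells, showed the largest fall. In an intron (chr4:154530345-154530777) the level went from 5.72 to 1.66, a change of -4.06, and WT was higher by a ratio of 16.7 (counting interval 7.86 to 42.5). That region lies 1.58 kb upstream of the start of a transcript annotated without a coding sequence and 106.1 kb from the nearest protein-coding start of Prdm16. Another intron region (chr4:154328925-154329219) fell from 5.45 to 3.71, and a region beyond the 3′ end (chr4:154301625-154301930) fell from 5.57 to 4.02. The last region overlaps Arhgef16, whose protein-coding start is the nearest one. For the region at chr4:154328925-154329219 the nearest protein-coding start is that of B230104I21Rik.

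No region was listed at Mecom, Hlf, Lmo4, Nkx2-3 or Sox4, the other transcription factor and cofactor genes of the set. Outside their windows, the nearest listed region was 77.44 kb from Lmo4 with a change of -0.81, 51.08 kb from Nkx2-3 with 1.99 and 90.71 kb from Sox4 with -0.93. For Mecom and Hlf it was over 100 kb away. At the Sox4 locus the paper, by contrast, reports ATAC-seq peaks gained in dKO cells. How far those peaks lie from Sox4 was not examined here.

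Genes of the fusion complex, counted together with Jmjd1c, held 23 regions at 7 of 11 genes. Of these regions 19 (82.61%) were higher in dKO, beside 60.3% of all listed regions. Jmjd1c, a gene of the histone demethylase family, supplied 6 of the 23, all higher. Of the 23, 9 lie on chromosome 10, where 82.01% of all listed regions were higher. Dot1l, which encodes the histone methyltransferase that MLL fusions recruit, had 3 higher regions. One at 3.357 kb upstream of the start (chr10:80751555-80751849) rose from 4.45 to 6.53, and one in an intron (chr10:80774074-80774562) from 4.87 to 6.99. A further intron region (chr10:80763315-80764031) rose from 6.96 to 7.96. Changes at Dot1l were thus 2.08, 2.12 and 1.00, all on the chromosome with many rises described above. With flanks of 50 kb the strongest change counted at Dot1l was -2.51, from a region further out.

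Mllt10 encodes AF10, the cofactor of DOT1L. All 3 of its regions were higher, and they lay in introns. The region nearest its start (chr2:18056257-18057331, at 1.02 kb) was the most accessible of all 58 regions in WT and rose from 9.34 to 9.95, a change of 0.61 that becomes -0.37 when the median of all listed regions is subtracted. The largest change, of 1.24, was at chr2:18176080-18176603, where the level went from 4.93 to 6.17.

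Jmjd1c encodes a protein of the histone demethylase family that takes part in MLL-driven leukemia. Its 6 regions were all higher, by moderate amounts. Over the start of the gene, which the gene Reep3 also overlaps (chr10:67096158-67097436), the level rose from 7.96 to 8.56, a change of 0.60. In an intron (chr10:67204752-67205522) it rose from 5.42 to 6.84, the largest change of the gene at 1.42. The other 4 regions rose by 0.71 to 1.33.

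The AF4 family was divided. Aff1, Aff3 and Aff4 encode scaffold proteins of elongation complexes, and AFF1 is the AF4 partner of MLL. Aff3 had 2 intron regions, of which 1 (chr1:38437763-38438078) rose from 2.04 to 5.06, a ratio of 8.11, and the other (chr1:38655218-38655521) rose from 3.57 to 5.26. Both hold AP-1 letters. At Aff4 the region over the start (chr11:53350337-53351276) rose from 7.60 to 8.18, a change of 0.58, which is lower than the median change of all listed regions.

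Aff1 held 7 intron regions, with 4 higher and 3 lower in dKO. The region nearest a start (chr5:103693036-103693723) lies 0.662 kb inside the 5′ end of the gene, which is the start of a transcript with a retained intron. Its level fell from 7.85 to 6.40, and it is 60.44 kb upstream of the nearest protein-coding start of Aff1 itself, while the nearest one of any gene is that of 1700016H13Rik. Further into the gene, regions at chr5:103808011-103808335 and chr5:103838450-103839189 fell from 5.18 to 3.55 and from 7.08 to 5.78. The 3 lower regions changed by -1.30 to -1.63, all hold C/EBP letters in their centers and none holds AP-1 letters.

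Between them in the gene, 4 regions were higher. The largest change was at chr5:103732309-103732594, where the level rose from 1.68 to 4.44, a ratio of 6.77 (3.09 to 18). A neighboring region (chr5:103732647-103732928) rose from 2.41 to 4.78, and neither of this pair holds any of the searched motifs. The other two, at chr5:103705891-103706378 and chr5:103719760-103720133, rose by 2.11 and 1.18 and hold the AP-1 letters printed above. Along the gene, 1 lower region was thus followed by 4 higher and then by 2 lower ones, as the plot of 4 loci shows.

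**Figure D3:**
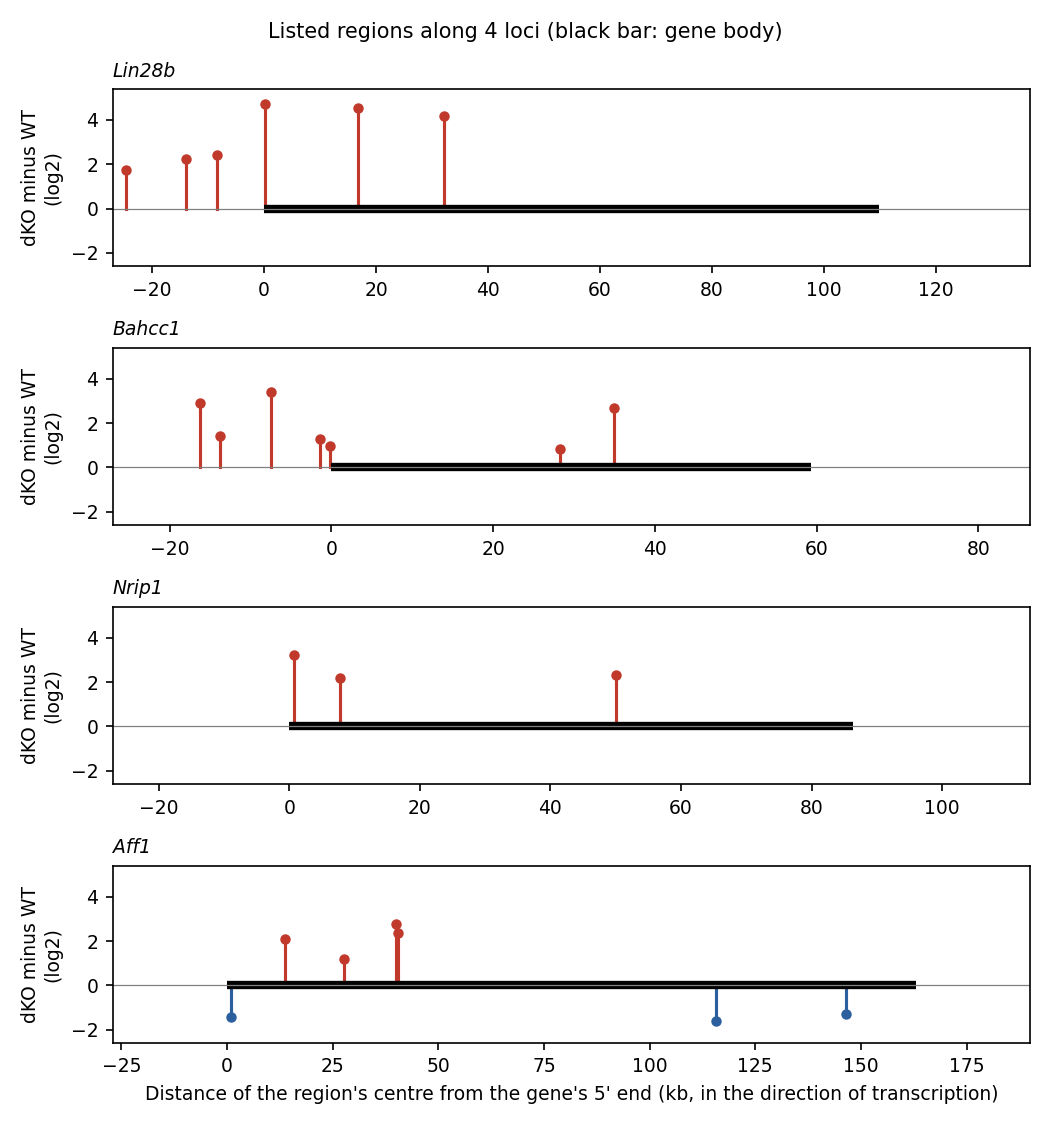
Changes in accessibility (y axis, dKO minus WT, log2) are drawn against the distance of each region's center from the 5′ end of the gene (x axis, kb, in the direction of transcription) for Lin28b, Bahcc1, Nrip1 and Aff1, red for higher and blue for lower in dKO, with the gene body as a black bar. Lin28b, Bahcc1 and Nrip1 show rises only, with the 3 tallest of Lin28b at its 5′ end and in the gene, and Aff1 shows a fall at its 5′ end, then 4 rises and then 2 falls.

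At Psip1, which encodes LEDGF, the region over the start (chr4:83485634-83486906) fell from 9.13 to 8.41, a change of -0.72. With flanks of 50 kb the strongest change counted at Psip1 was 1.42, so that its place among the genes with lower regions only depends on the window. This was the only lower region within 1 kb of a member's protein-coding start, where 9 regions were higher. Kmt2a, which encodes MLL itself, Men1 (menin), Mllt1 (ENL) and Mllt3 (AF9) had no listed region, and for each of them the nearest one lay over 100 kb away.

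Among the targets and regulators, Bahcc1 had the most regions. It encodes a chromatin reader with a BAH domain, and its 7 regions were all higher. The paper reports raised RNA of Bahcc1, Fut8 and Sox4 in dKO cells. Members were chosen with earlier results of these data known, so the rises at Bahcc1 are not independent of that choice. Over the start (chr11:120232569-120233042) the level rose from 7.90 to 8.87, a change of 0.97. The largest change was 7.232 kb upstream (chr11:120225196-120225715), from 2.11 to 5.53, a change of 3.42 and a ratio of 10.7. The other 5 regions rose by 0.85 to 2.92, and the largest changes were at regions with low WT levels, both upstream and inside the gene.

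Nrip1, which encodes a corepressor of nuclear receptors, had 3 higher regions. The one over its start, in the untranslated first exon (chr16:76372703-76373549), rose from 3.98 to 7.22, a change of 3.24 and a ratio of 9.45. It was the largest rise at any protein-coding start that a region overlapped. Regions further into the gene, at chr16:76365982-76366214 and chr16:76323637-76323959, rose by 2.20 and 2.34 and each hold a C/EBP match.

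Trib1 and Trib2 encode pseudokinases that promote degradation of C/EBPα, and they went opposite ways. The Trib2 region lies over the start and first coding exon (chr12:15816693-15817223), overlaps the annotated gene Gm5432, and rose from 5.43 to 6.54, a change of 1.11. Beyond the 3′ end of Trib1, regions at 1.731 and 16.85 kb from the gene (chr15:59658830-59659186 and chr15:59673946-59674517) fell from 5.90 to 4.43 and from 7.12 to 6.26. Fut8, a fucosyltransferase gene, and Ndn, which encodes necdin, had no listed region, and their nearest ones were 103.3 and 203.9 kb away.

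Surface and niche genes held 6 regions, 5 of them (83.33%) higher, beside 60.3% of all listed regions. Angpt1 encodes the ligand of the receptor TEK, and its 4 intron regions all rose, by 0.89 to 1.77. The region nearest a start (chr15:42509807-42510255) is 166.5 kb inside the gene and rose from 6.77 to 7.66, while its neighbor at chr15:42508974-42509193 rose from 3.35 to 5.12. Adgrg1, which encodes the adhesion receptor GPR56, had a region over a coding exon (chr8:95012034-95012967) that rose from 5.91 to 7.29, a change of 1.38, although the nearest protein-coding start is that of Adgrg3.

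The only lower region of this group was at Cd93, which encodes a lectin-like surface protein of early progenitors. At 8.536 kb beyond its 3′ end (chr2:148427680-148428104) the level fell from 5.44 to 3.98, a change of -1.46. Tek, which encodes the receptor of ANGPT1, and Procr, which encodes a surface receptor used to isolate stem cells, had no listed region. For these 2 genes the nearest lay 200.5 and 108.8 kb away.

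Most of the 58 regions were not at promoters. In the gene bodies lay 44, of which 32 covered introns only, while 9 were upstream and 5 downstream of the gene. Within 1 kb of an annotated start of a member transcript lay 12 regions, 10 higher and 2 lower, and of the 1912 listed regions within 1 kb of a start of any gene 1091 were higher. Counting the starts of all annotated genes, 17 regions (29.31%) were within 1 kb of one, beside 19.09% of all listed regions. The member was the gene with the nearest protein-coding start for 51 regions. Width and base composition were close to those of the whole list, with medians of 411 and 400 bp and of 51.5 and 50% G or C.

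Motif letters were counted in the central 200 bp. C/EBP letters were present in 5 of 11 lower regions (45.45%) and in 5 of 47 higher ones (10.64%), beside 40.77% and 20.15% of all lower and higher listed regions. All 11 regions with AP-1 letters were higher, which is 23.4% of the higher regions beside 26.63% of all higher listed regions. AP-1 letters were in 0 of 11 lower regions, beside 4.647% of all lower listed regions. Shares of C/EBP and AP-1 letters at the program genes therefore lay on the same side of each other as in the whole list. The lower regions number 11 only, and none of these shares was tested.

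Of the other motifs, GATA letters were found in 6 regions (10.34%), RUNX letters in 4 (6.897%) and PU.1 letters in 1 (1.724%), beside 7.528%, 11.88% and 9.205% of all listed regions. Every region with one of these was higher in dKO, and in the whole list 503 of 754 regions with GATA letters, 831 of 1190 with RUNX letters and 788 of 922 with PU.1 letters were higher. In 31 of the 58 regions none of the 5 motifs was found, and no region held both C/EBP and AP-1 letters.

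**Figure D4:**
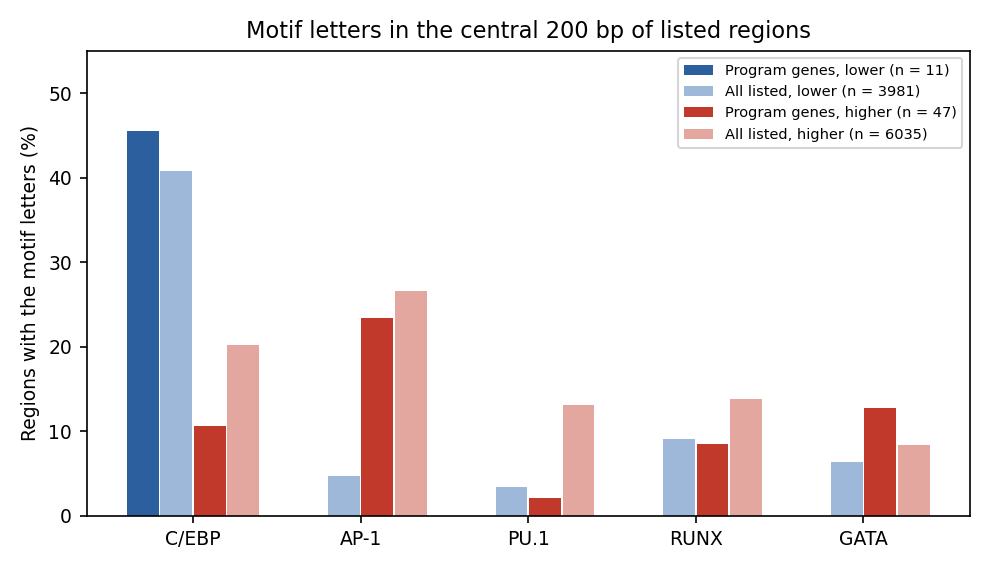
Bars give the share of regions (y axis, percent) whose central 200 bp hold the letters of each motif (x axis), for lower and higher regions at the program genes (dark blue and red) and in the whole list (pale blue and red). Of the program regions, 45.45% of those lower and 10.64% of those higher in dKO hold C/EBP letters, and AP-1 letters are in 23.4% of the higher ones and absent from the lower ones.

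Further genes of the same pathways gave a mixed picture. Of 23 cofactors of MLL and of elongation, 8 had listed regions, with 6 higher and 6 lower. At Cdk9, the kinase that releases paused polymerase, the largest change was 3.67 (1.07 to 4.74), at Leo1 of the PAF complex it was -1.98 (5.53 to 3.55), and at Ccnt2, which encodes a cyclin partner of CDK9, 1.94 (2.77 to 4.71). Of 19 other stem and progenitor genes, 10 had regions, 13 higher and 6 lower, among them regions at Slamf1 (4.60 to 0.43) and Kit (1.26 to 4.52). Of 9 genes of the LIN28, HMGA and IGF2BP families and their relatives, 4 had regions, 6 higher and 1 lower, led by Hmga1 (-0.15 to 4.33), Trim71 (1.54 to 4.52) and Igf2bp2 (3.65 to 5.34). The shares of higher regions in these lists were 50%, 68.42% and 85.71%, beside the 60.3% of all listed regions given above.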

How the data were processed

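ATAC-seq libraries of WT, dKO and dKO-LAP* cells (2 per group) were preprocessed by the authors with PiGx, aligned to mm10 with Bowtie 2, searched for peaks with MACS and compared with DiffBind 2.14.0 at a corrected P-value of 0.05. Only an average read number over all samples is stated by the authors; the depth of each library, handling of duplicates and the Tn5 offset were not given in the sources used here. Kept duplicates would raise strongly amplified regions. The authors' deposited table holds log2 means of normalized reads per region over both groups, over WT and over dKO. It also holds the authors' fold change, p-value and FDR, which were not used. The 2 deposited files were identical, so that 1 distinct table was analyzed.

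Regions were assigned to genes by GENCODE M21 bodies with 25 kb flanks with Python 3.11.15 and pandas 2.3.3, and the change was taken as dKO minus WT. Assignment of regions to genes was tested on simulated data, and the motif search was not. Ratio intervals are 95% exact binomial intervals on reads, with the lowest level counted as 1 read per library. Every member with a region is described by the region nearest its start and the one with the largest change. The members, gene lists and motifs were chosen with earlier results of these data known. Sequence windows over exons were not printed.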

Additional observations from a re-analysis of the deposited data

How the results depend on the processing

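No paired analysis was possible because only means per group, with no value per library, were deposited, and for the same reason no replicate could be left out. The median change of 1.42 at the program genes was 1.40 with flanks of 10 kb and with gene bodies alone, 1.38 with flanks of 50 kb and without the 3 regions at or under 3 reads per library in WT, 1.72 when only regions nearest to the member's own protein-coding start were kept, 1.24 with 8 normalized reads added to each mean, and 0.44 (0.435) after subtraction of the median of all listed regions. The 40 regions at least 2-fold higher became 22 after that subtraction, and the 9 at least 2-fold lower became 5 by nearest protein-coding start and 4 at a 3-fold threshold. Without chromosome 10, an alternative chosen after the data were seen, 31 regions were higher, 26 were at least 2-fold higher and the median was 1.34.

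The strongest change at Dot1l turned from 2.12 to -2.51 with flanks of 50 kb, since a region further out was then counted. Subtraction of the median turned the strongest change at Aff1 to -2.61, as the lower regions then led, and that at Mllt10 to -0.37. The Psip1 change of -0.72 became 1.42 with flanks of 50 kb, and the Aff4 change of 0.58 became -0.40 after the subtraction. Of 166 values of a member's strongest change under another setting, 116 stayed the same, these 5 changed sign, and the rest kept their sign. Not among them are members left with no region, namely Myb with flanks of 10 kb, Myb, Cd93 and Trib1 with gene bodies alone, Adgrg1 by nearest protein-coding start, Mef2c without regions near the floor, and the 4 genes of chromosome 10 without it. The list holds changed regions only, and its means carry no replicate error.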
